A study of Mus musculus with 8 samples.

Results

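Mpo, Elane, Prtn3, Ctsg, Ms4a3, Nkg7, Plac8 and Ctsc are 8 genes of myeloid progenitors, 8 of the 24346 gene symbols measured. They encode proteins of the primary (azurophil) granule, or mark the progenitors in which that granule is first built. The 8 genes were chosen by name with their FPKM in these same 4 groups already known, so every level and difference given for them is a description and carries no test. All 8 passed the filter on low values, which kept 12003 genes with at least 1 FPKM (fragments per kilobase of transcript, scaled to library size) in at least 2 libraries.

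The study asked how red blood cells (RBCs) act on blood stem cells. Wild-type mouse bone marrow gave hematopoietic stem cells (HSCs, Lin- Sca-1+ c-Kit+ cells that are also CD48- and CD150+, labelled LT-HSC) and LSK cells (Lin- Sca-1+ c-Kit+, which hold HSCs and the multipotent progenitors below them). Each was cultured for 1 day alone or with RBCs, in medium with thrombopoietin and stem cell factor, and CD45-positive cells were then sorted for RNA sequencing. The 4 groups had 2 libraries each. The RBCs came from mouse blood that had passed a leukocyte filter and been irradiated. The labels do not say whether the 2 libraries of a group came from separate mice or cultures, so the spread between them may be technical. The mice were adult C57BL/6 animals of either sex, and which of them gave which library is not given in the sources used here.

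The primary granule is the first granule that a developing granulocyte makes, at the promyelocyte stage, and its content is made early and stored. Myeloperoxidase (Mpo) turns hydrogen peroxide and chloride into hypochlorous acid. Neutrophil elastase (Elane), proteinase 3 (Prtn3) and cathepsin G (Ctsg) are serine proteases that are made as inactive precursors, and cathepsin C (Ctsc), also known as dipeptidyl peptidase I, cuts off the short propeptide that keeps them inactive. Ms4a3 encodes a membrane protein known as a marker of granulocyte-monocyte progenitors, Nkg7 a membrane protein of cytotoxic granules, and Plac8 a small cysteine-rich protein of early progenitors, so Ms4a3, Nkg7 and Plac8 are companions of the program and not granule enzymes.

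Stretches before the RefSeq start sites of 4 of the genes are shown because Prtn3 and Elane are neighbours that were both higher with RBCs in LSK cells. Mpo and Ctsg, on other chromosomes, differed in level but had the highest correlation of any pair of the 8 genes over the 8 libraries (r = 0.995). Each is the part of the 250 bases before the RefSeq start site (build GRCm38.p6) that lies outside every exon annotated for the gene, written on the gene's own strand. The Prtn3 stretch lies inside the GENCODE span of that gene, which begins before the RefSeq start site. Capitals mark GAGGAA, letters found in sites of the ETS factor PU.1, and ACCACA, the reverse complement of the RUNX letters TGTGGT.

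Prtn3, chr10:79879417-79879613, plus strand: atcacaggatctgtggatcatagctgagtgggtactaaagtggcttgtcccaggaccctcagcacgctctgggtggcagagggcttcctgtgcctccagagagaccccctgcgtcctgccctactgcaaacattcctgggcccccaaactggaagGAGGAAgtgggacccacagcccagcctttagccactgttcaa
Elane, chr10:79886062-79886246, plus strand: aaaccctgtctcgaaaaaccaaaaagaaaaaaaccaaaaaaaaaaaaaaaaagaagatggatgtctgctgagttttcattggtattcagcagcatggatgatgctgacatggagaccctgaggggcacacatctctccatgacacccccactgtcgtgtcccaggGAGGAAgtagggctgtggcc
Mpo, chr11:87793534-87793580, plus strand: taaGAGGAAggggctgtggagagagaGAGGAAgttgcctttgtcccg
Ctsg, chr14:56102575-56102824, minus strand: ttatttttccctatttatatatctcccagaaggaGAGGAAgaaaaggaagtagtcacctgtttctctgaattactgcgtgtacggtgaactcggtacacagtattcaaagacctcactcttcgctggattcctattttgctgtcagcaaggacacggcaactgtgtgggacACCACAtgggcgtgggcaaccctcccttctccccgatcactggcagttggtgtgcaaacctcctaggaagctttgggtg

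GAGGAA, searched on both strands, was in the 250-base window of 6 of the 8 genes (Plac8, Ctsc, Prtn3, Elane, Mpo and Ctsg) and in 23.25% of 32817 windows of all genes. The match began 95 bases before the start site in Prtn3 and 85 bases before it in Elane, so it sat at a like distance in the 2 neighbours. TGTGGT was in windows of Plac8, Nkg7 and Ctsg, against 14.04% of all windows. TTGCNNAA, letters of C/EBP sites, was in a window of Plac8 alone, against 9.57% of all windows, and AACNG, letters of MYB sites, was in windows of all of the 8 but Ms4a3, against 74.18% of all windows. No other promoter feature was searched.

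On GRCm38, Prtn3 (chr10:79874476-79883174) and Elane (chr10:79886247-79888215) lie 3073 bases apart on the plus strand, and Cfd, the complement factor D gene, begins 2638 bases past Elane. Mpo is at chr11:87793581-87804413 on the plus strand, Ctsg at chr14:56099881-56102574 on the minus strand, Ms4a3 at chr19:11629496-11640851 on the minus strand and Plac8 at chr5:100553725-100572245 on the minus strand. Nkg7 (chr7:43437073-43438249) and Ctsc (chr7:88278085-88310888) are both on the plus strand of chromosome 7, far apart. The library kit does not mark strand, and Mpo, Prtn3 and Ctsc each overlap, over part of their span, a gene on the other strand. These are Gm11505 (87795784-87801144), Plppr3 (79860475-79874634) and Gm26522 (88278787-88283529). Only reads inside the shared stretch cannot be told apart.

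The libraries were similar in size. Their FPKM values summed to between 680942 and 752107, and 14829 to 16551 genes were above 0. Their relative depth lay between 0.886 and 1.13 times that of replicate 1 of LSK cells without RBCs. It was read from the most frequent ratio of FPKM between each library and that one, among genes with a mean under 1 FPKM. Replicates correlated at r = 0.979 to 0.983 over the genes tested. HSC markers and progenitor markers followed the labels: without RBCs, Slamf1, Mllt3 and Vwf of 9 HSC markers were called lower in LSK cells, none higher, and Cd48, Flt3, Dntt and Satb1 of 5 progenitor markers were called higher, but Slamf1, which encodes CD150, and Cd48 were used in the sort, so their differences were set by it. A call here needs an adjusted p under 0.05 (limma, Benjamini-Hochberg over 12003 genes) and at least a 2-fold difference on the log2(FPKM + 1) scale. In replicate 1 of HSCs with RBCs, some genes of mature neutrophils were high, and in replicate 2 of HSCs without RBCs the eosinophil gene Prg2 had 45.7 FPKM against at most 0.778 in every other library.

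Together the 8 genes had 554 and 580 FPKM in the HSC libraries without RBCs, 800 and 788 with RBCs, 1649 and 1749 in the LSK libraries kept alone, and 2095 and 2113 with RBCs. That was 0.0771% to 0.310% of all FPKM in a library, lowest in HSCs alone and highest in LSK cells with RBCs. The 4 groups did not overlap in this sum. Its make-up differed more than its size: Prtn3 held 40.2% and 39.8% of the sum in HSCs without RBCs, where Mpo held 3.20% and 1.92%, whereas in LSK cells alone Mpo held 28.3% and 33.5% and Prtn3 13.6% and 11.7%. Plac8 held 55.4% and 53.7% of the sum in HSCs with RBCs, up from 29.0% and 30.9% without.

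**Figure D1:**
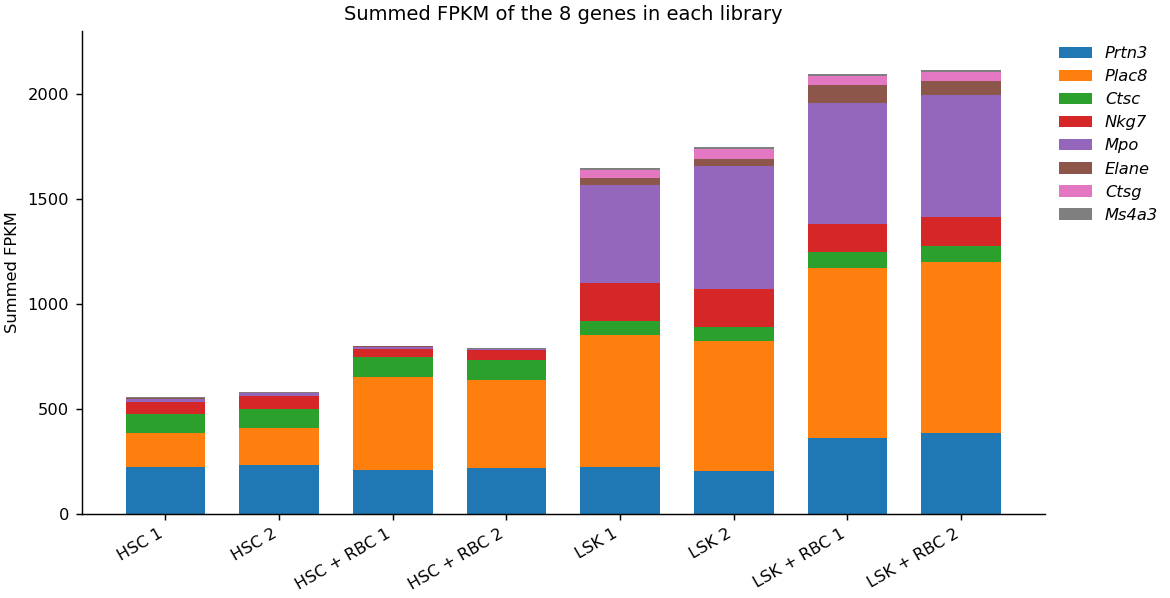
Summed FPKM of the 8 genes in each of the 8 libraries, as stacked bars that start at 0 (horizontal axis, library; vertical axis, FPKM). The sum stands at 554 and 580 in HSCs alone and at 2095 and 2113 in LSK cells with RBCs, and the Mpo part is wide in the LSK libraries and hardly visible in the HSC libraries.

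The 3 genes that separated the stem cell gate from the wider LSK gate most were Mpo, Elane and Ctsg. Mpo had 17.8 and 11.1 FPKM in HSCs without RBCs, 6.16 and 2.82 in HSCs with RBCs, 466 and 585 in LSK cells alone, and 579 and 581 with RBCs. All 4 LSK libraries lay above all 4 HSC libraries. The mean in LSK cells was 36.4 times that in HSCs without RBCs and 129 times with RBCs, and Mpo stood at the 98.2 to 98.6 percentile of the tested genes in LSK cells but at the 17.3 to 56.1 percentile in HSCs. Such a step was not particular to early granule genes. Of 12 tested genes of mature neutrophils, S100a8, S100a9 and Retnlg were called higher in LSK cells without RBCs (1.62% of all tested genes) and none lower. With RBCs Mmp8, Mmp9, Retnlg, Cxcr2 and Padi4 were called higher there (2.61%) and none lower. In bulk RNA, fewer cells that express a gene and less RNA of it per cell cannot be told apart.

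Ctsg, the cathepsin G gene, had the profile closest to that of Mpo over the 8 libraries (r = 0.995 on log2(FPKM + 1), a description over libraries that fall into 2 cell types). Its level was 1.37 and 1.15 FPKM in HSCs without RBCs, 1.06 and 0.085 with RBCs, 39.8 and 48.8 in LSK cells alone, and 42.9 and 43.3 with RBCs. The LSK mean without RBCs was 35.1 times the HSC mean. The HSC values rest on very few reads: counted in the smallest step of the gene's FPKM values, they correspond to 16, 11, 11 and 1 reads in the 4 HSC libraries, against 394 to 563 in the LSK libraries. The ratio of Mpo to Ctsg stayed between 11.7 and 13.5 in the 4 LSK libraries and ranged from 5.80 to 33.1 in the HSC libraries.

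Elane, the neutrophil elastase gene, had 3.45 and 1.75 FPKM in HSCs without RBCs and 3.77 and 0.476 with RBCs. In LSK cells it had 33.6 and 33.1 FPKM without RBCs and 84.2 and 65.7 with RBCs. The HSC groups overlapped, and the LSK groups did not. The LSK mean was 12.8 times the HSC mean without RBCs and 35.3 times with RBCs, and the lowest HSC value corresponds to 5 reads.

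Prtn3, the proteinase 3 gene beside Elane, did not follow this pattern. It had 223 and 231 FPKM in HSCs without RBCs, 208 and 216 with RBCs, 223 and 204 in LSK cells alone, and 359 and 384 with RBCs. Without RBCs the 2 cell types overlapped, and in all 8 libraries the gene stood at the 95.2 percentile of tested genes or higher. Thus HSCs held 55.3 to 454 times as much Prtn3 as Elane per length, while LSK cells held 4.26 to 6.65 times as much. The order of the group means for Prtn3 was LSK cells with RBCs at 372 ± 17.7 FPKM (SD, n = 2), then HSCs alone at 227 ± 5.36, LSK cells alone at 214 ± 13.6 and HSCs with RBCs at 212 ± 5.41, and LSK cells alone differed from neither HSC group beyond their spread.

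Ctsc, whose product activates these proteases, was the 1 gene of the 8 that was higher in HSCs. It had 88.8 and 90.4 FPKM in HSCs without RBCs, 95.1 and 95.6 with RBCs, 64.8 and 66.8 in LSK cells alone, and 78.5 and 78.1 with RBCs. No 2 of the 4 groups overlapped. The HSC mean was 1.36 times the LSK mean without RBCs and 1.22 times with RBCs, and over the 8 libraries Ctsc correlated negatively with each of the other 7 genes (r from -0.961 with Nkg7 to -0.131 with Prtn3).

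Of the companions, Ms4a3 had 1.87 and 3.11 FPKM in HSCs without RBCs, 2.1 and 3.13 with RBCs, 8.70 and 10.9 in LSK cells alone, and 9.82 and 8.55 with RBCs. It split the cell types and not the conditions: the LSK mean was 3.94 times the HSC mean without RBCs and 3.51 times with RBCs. Its HSC values correspond to 22 to 37 reads. Nkg7 had 57.3 and 62.3 FPKM in HSCs without RBCs, 39.8 and 46.8 with RBCs, 184 and 182 in LSK cells alone, and 131 and 137 with RBCs. The 4 groups of Nkg7 did not overlap, with LSK cells at 3.05 times the HSC mean without RBCs. Plac8 had 161 and 179 FPKM in HSCs without RBCs, 443 and 423 with RBCs, 628 and 618 in LSK cells alone, and 809 and 815 with RBCs, again 4 groups without overlap.

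Nkg7 is also a gene of natural killer and T cells. The sum of 12 markers of those cells was 12.6 to 16.2 FPKM in the HSC libraries and 22.5 to 24.0 in the LSK libraries, of which Lck made up 10.1 to 15.4. Cd3e stood at no more than 0.070 FPKM in any library, Prf1 was listed at 0 in 7 of the 8, and Ncr1 in 6 of the 8, with 0.962 FPKM as its highest value. Klrd1 was called higher in LSK cells alone (0 and 0.253 FPKM in HSCs, 5.95 and 5.97 in LSK cells).

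**Figure D2:**
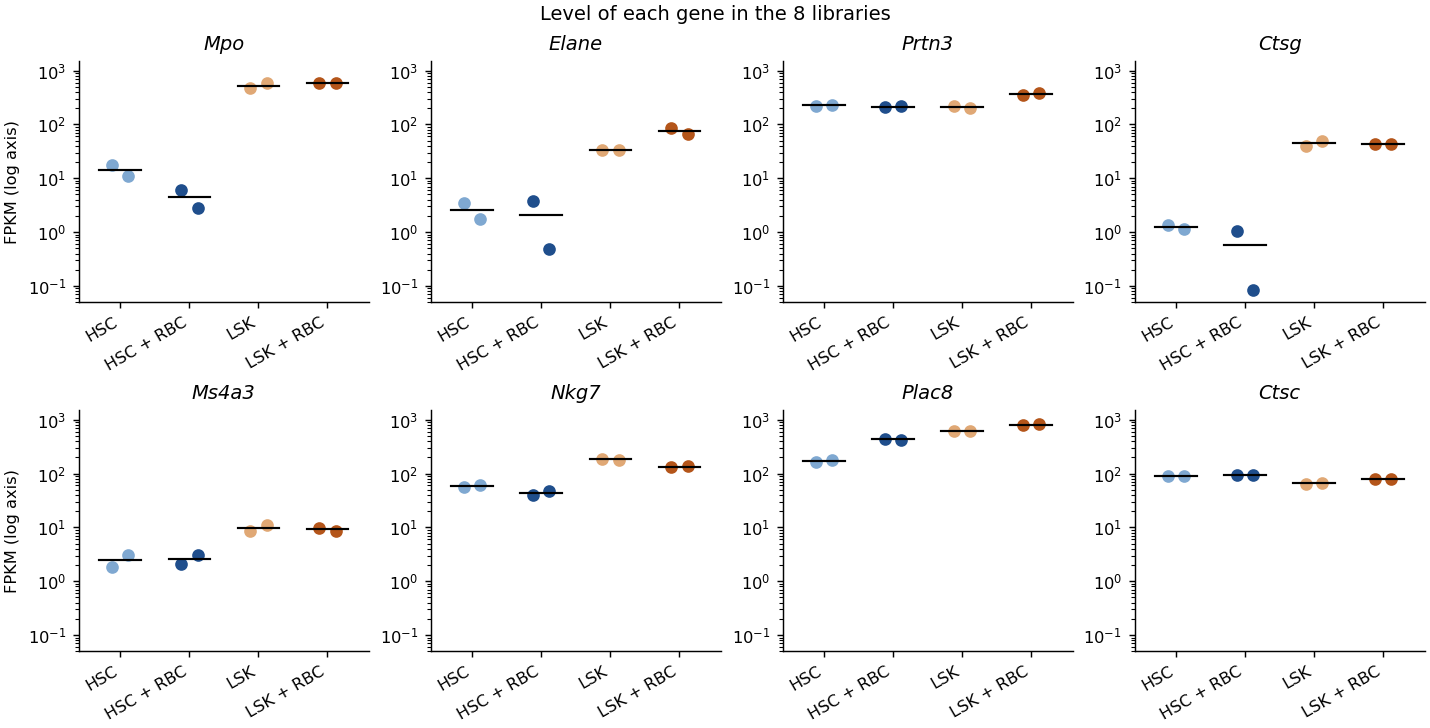
FPKM (vertical log axis) of each of the 8 genes in the 2 libraries of each group (points), with the group mean as a line. Mpo, Elane and Ctsg step up from HSCs to LSK cells, Prtn3 stays between 204 and 231 in 6 libraries and reaches 359 and 384 in LSK cells with RBCs, and Ctsc steps down.

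Between the cell types without RBCs, the log2 difference (LSK minus HSC, on log2(FPKM + 1)) was 5.12 for Mpo (SE 0.28), 4.32 for Ctsg (SE 0.25), 3.30 for Elane (SE 0.45), 1.87 for Plac8 (SE 0.068), 1.65 for Ms4a3 (SE 0.22), 1.60 for Nkg7 (SE 0.086), -0.087 for Prtn3 (SE 0.069) and -0.44 for Ctsc (SE 0.062). These 6 positive differences are past the call rule, where 1.62% of all tested genes were called higher and 1.03% lower. The 6 genes had LSK groups wholly above the HSC groups, as 28.0% of all tested genes did, and Ctsc had them wholly below, as 26.9% did. With RBCs, the log2 difference was 6.80 for Mpo, 4.88 for Ctsg, 4.83 for Elane, 1.61 for Nkg7 and 1.51 for Ms4a3, which 5 are past the call rule (background 2.61% higher, 1.0% lower). It was 0.91 for Plac8, 0.80 for Prtn3 and -0.28 for Ctsc. With RBCs, 7 genes had all LSK libraries above the HSC libraries (33.7% of tested genes) and Ctsc had them below (33.1%). The median over the 8 genes was 1.76 without RBCs and 1.56 with RBCs, against 0.0085 and 0.0075 over all tested genes. The comparisons share libraries and the genes were chosen with these levels known, so nothing is read from the shares.

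In HSCs, the gene of the 8 that stood lowest with RBCs relative to without was Mpo, and the one that stood highest was Plac8. The mean of Mpo went from 14.4 ± 4.69 FPKM (SD, n = 2) to 4.49 ± 2.36, a 3.22-fold lower level and a log2 difference of -1.53 (SE 0.28). Plac8 went from 170 ± 13.1 to 433 ± 14.7 FPKM, 2.55-fold higher, a log2 difference of 1.35 (SE 0.068). Plac8 is past the call rule upward, where 0.633% of tested genes were called, and Mpo is past it downward, where 0.142% were called. Mpo was no longer past the rule in 5 of 15 alternative settings, among them the fit without replicate 1 of HSCs alone (-1.21) and without replicate 2 of HSCs with RBCs (-1.08). Plac8 stayed past it in all 15, between 1.27 and 1.42.

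On this scale the other 6 genes differed less in HSCs, and 3 of them, Elane, Ctsg and Ms4a3, rested on few reads. Nkg7 was lower with RBCs in both libraries (1.38-fold, log2 difference -0.46, SE 0.086). The difference was -0.095 for Prtn3 (SE 0.069), 0.089 for Ctsc (SE 0.062), 0.059 for Ms4a3 (SE 0.22), -0.40 for Elane (SE 0.45) and -0.59 for Ctsg (SE 0.25). Leaving out single libraries moved the value for Elane between -1.24 and 0.45 and that for Ctsg between -1.06 and -0.13. At -1.06, without replicate 1 of HSCs with RBCs, Ctsg was past the call rule, and with a pseudocount of 0.1 in place of 1 its difference was -1.55, not past it. Without overlap between the groups, Plac8 and Ctsc were higher (2 of 8, against 19.9% of tested genes) and Mpo, Prtn3, Ctsg and Nkg7 were lower (4 of 8, against 21.8%).

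Of 12 tested genes of mature neutrophils, S100a8, S100a9 and Chil3 were called higher with RBCs in HSCs and none lower. The list covers specific and gelatinase granules, and also S100a8 and S100a9 of the cytosol, the enzyme Padi4 and the receptor Cxcr2. S100a8, a calcium-binding protein of neutrophil cytosol, had 5.70 and 2.32 FPKM without RBCs and 148 and 22.3 with RBCs (log2 difference 3.64, SE 0.69, limma adjusted p = 0.0283), S100a9 had 0.220 and 1.33 without and 87.9 and 11.8 with (adjusted p = 0.0193), and for Chil3 the adjusted p was 0.0293. The 3 calls were lost in 7, 5 and 6 of 15 alternative settings, without either library of HSCs alone among them. The sum over the 14 genes of the list that the files hold was 77.5 and 60.9 FPKM in HSCs alone and 315 and 94.5 with RBCs, and S100a8 and S100a9 made up most of the difference. Padi4, a peptidylarginine deiminase, made up most of the sum without RBCs and stood lower with them (66.9 and 52.4 against 40.9 and 44.7 FPKM, log2 difference -0.46, adjusted p = 0.104), and for Mmp8 the difference was -0.21 (adjusted p = 0.809). Replicate 1 with RBCs had the higher sum of the 2 and the higher S100a8, S100a9 and Chil3. It also had the higher Mpo (6.16 against 2.82 FPKM), Elane (3.77 against 0.476) and Ctsg (1.06 against 0.085). In that library Ngp had 4.65 FPKM, Camp 4.74 and Fcnb 6.45, all of them at most 0.428 in the other 3 HSC libraries. Other genes of the list were lower in replicate 1 than in replicate 2 with RBCs, among them Retnlg (0.965 against 5.29 FPKM), Ltf (1.59 against 1.83), Mmp9 (0.077 against 0.386) and Padi4 (40.9 against 44.7).

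Of 6 tested red blood cell genes, Hba-a1, Hbb-b1 and Alas2 were called higher with RBCs in HSCs, the last of them lost in 5 of 15 alternative settings, and Hba-a1 in LSK cells. Hba-a1, an alpha-globin gene of RBCs, had 0.083 and 1.40 FPKM in HSCs alone and 116 and 88.7 with RBCs, and 0.864 and 1.53 in LSK cells alone and 32.9 and 43.1 with RBCs (adjusted p = 3.82e-05 and 0.000466). Hbb-b2, the most abundant of the list, had 279 and 335 FPKM in HSCs alone and 120 and 158 with RBCs (log2 difference -1.14, adjusted p = 0.157), and 109 and 173 in LSK cells alone and 128 and 54.1 with RBCs (adjusted p = 0.309). The sum of the list was 282 and 338 FPKM in HSCs alone and 308 and 299 with RBCs, so those groups overlapped, and reads of near-identical globin copies can be split between symbols. The part of neutrophil or red blood cell RNA in the levels of Mpo, Elane and Ctsg was not tested.

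**Figure D3:**
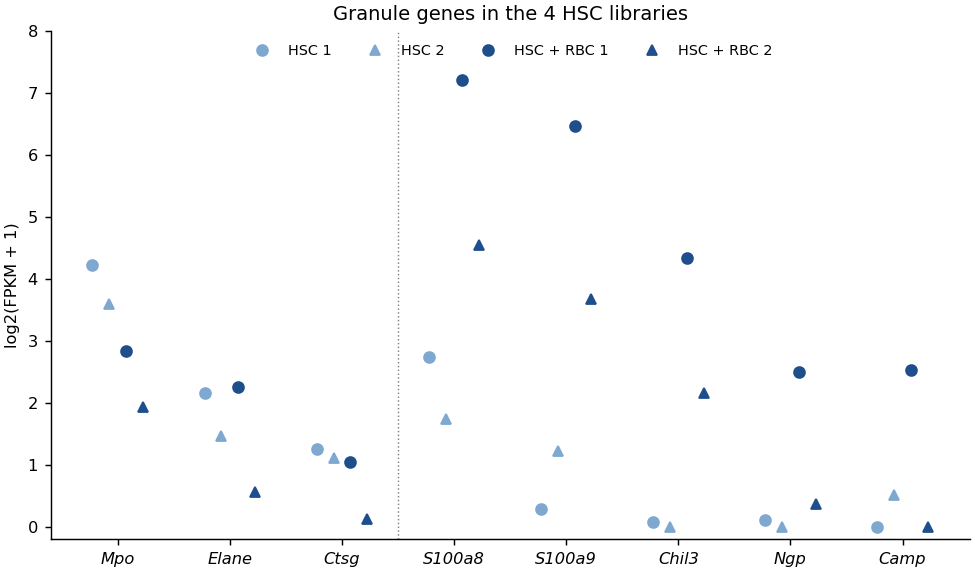
Level on the log2(FPKM + 1) scale (vertical axis) of 3 primary granule genes (left of the dotted line) and 5 genes of later neutrophil granules and cytosol (right) in each of the 4 HSC libraries (points, by group and replicate). With RBCs both libraries are lower for Mpo and higher for S100a8, S100a9 and Chil3, while Ngp and Camp are high in replicate 1 with RBCs alone. Padi4, which stood lower with RBCs, and Retnlg, which stood higher in replicate 2 with RBCs than in replicate 1, are not plotted.

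In LSK cells, the 2 neighbouring protease genes were higher with RBCs and Mpo and Ctsg were not. Elane went from 33.3 ± 0.366 FPKM (SD, n = 2) to 75.0 ± 13.1, 2.25-fold higher, a log2 difference of 1.13 (SE 0.45). Prtn3 went from 214 ± 13.6 to 372 ± 17.7 FPKM, 1.74-fold higher, a log2 difference of 0.80 (SE 0.069). Mpo went from 526 ± 83.8 to 580 ± 1.16 FPKM and Ctsg from 44.3 ± 6.32 to 43.1 ± 0.301, with groups that overlapped, and Ms4a3 overlapped as well. The ratio of Mpo to Elane was 13.9 and 17.7 in cells kept alone and 6.88 and 8.85 in coculture.

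None of the 8 genes is past the call rule for RBCs in LSK cells, where 0.900% of tested genes were called higher and 0.108% lower. Elane was past it in 3 of 15 alternative settings, the fit of the LSK libraries alone and the fits without either library of HSCs with RBCs. Without overlap, Elane, Prtn3, Plac8 and Ctsc were higher (4 of 8, against 24.2%) and Nkg7 was lower (1 of 8, against 26.4%). Plac8 was 1.30-fold and Ctsc 1.19-fold higher, with log2 differences of 0.38 (SE 0.068) and 0.25 (SE 0.062), and Nkg7 was 1.36-fold lower (-0.44, SE 0.086). The median of the 8 was 0.20, against -0.0095 over all tested genes, and in HSCs it was -0.25, against -0.0062.

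Other genes near Prtn3 and Elane did not share the higher level with RBCs in LSK cells. Ptbp1, a splicing regulator 9705 bases before Prtn3, had 125 and 136 FPKM without RBCs and 107 and 109 with RBCs. Cfd had 0 and 1.35 FPKM without RBCs and 1.57 and 0.315 with RBCs, and Med16, past it, had 18.5 and 18.8 without and 17.4 and 16.8 with. Beside Ctsg, the serine protease gene Mcpt8 was listed at 0 in all 4 HSC libraries and at 3.66, 11.8, 13.6 and 3.89 FPKM in the LSK libraries, and Gzme was listed at 0 in all 8. Lpo, the lactoperoxidase gene 2015 bases past Mpo, stood at no more than 0.190 FPKM.

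In LSK cells, Mmp8, Mmp9 and Retnlg of the 12 tested genes of mature neutrophils were called higher with RBCs and none lower, calls that were lost in 11, 2 and 5 of 15 alternative settings. The sum of that list was 203 and 311 FPKM in cells kept alone and 664 and 460 in coculture. Most of it was S100a8 (79.1 and 114 FPKM without, 303 and 204 with) and S100a9 (30.5 and 63.5 without, 156 and 89.6 with), neither of them called (adjusted p = 0.326 and 0.359). The sum of 11 monocyte and macrophage markers was 24.9 and 32.0 in cells kept alone and 87.4 and 95.1 in coculture. Most of that was 2 receptors, Ccr2 (7.61 and 4.57 FPKM without, 34.4 and 35.0 with, limma adjusted p = 0.000577) and Csf1r, while C1qa was listed at 0 in all 8 libraries and Adgre1 stood at no more than 0.566 FPKM. The part of these cells in the levels of Elane and Prtn3 was not tested.

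**Figure D4:**
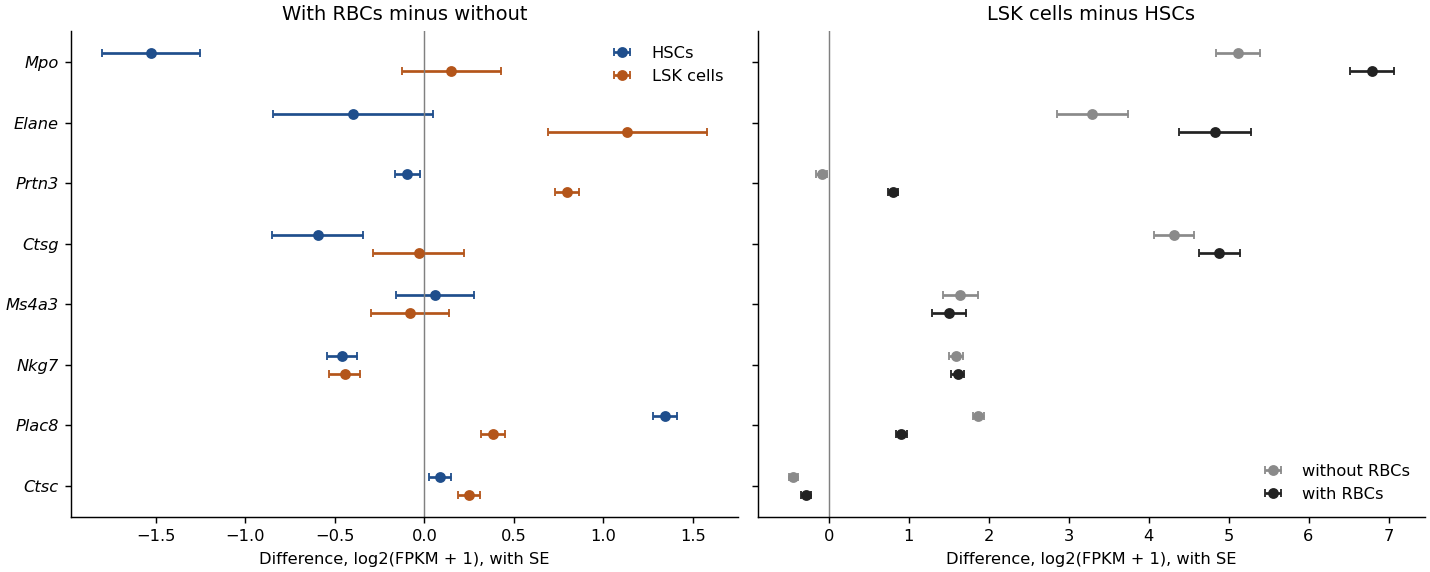
Differences on the log2(FPKM + 1) scale (horizontal axis) for the 8 genes, with the standard error as a bar: with RBCs minus without (left, HSCs and LSK cells) and LSK cells minus HSCs (right, without and with RBCs). Prtn3 lies at -0.095 in HSCs and 0.80 in LSK cells, and Nkg7 lies at -0.46 and -0.44.

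The RBC differences of the 2 cell types can be set side by side. The difference in HSCs minus that in LSK cells was -1.68 for Mpo (SE 0.39), -1.53 for Elane (SE 0.63), -0.89 for Prtn3 (SE 0.097), -0.56 for Ctsg (SE 0.36), -0.16 for Ctsc (SE 0.087), -0.016 for Nkg7 (SE 0.12), 0.14 for Ms4a3 (SE 0.30) and 0.96 for Plac8 (SE 0.096). None is past the call rule, which took 0.0333% of tested genes upward and 0.0750% downward. Nkg7 was lower with RBCs to a like degree in both cell types, and Plac8 was higher in both and more so in HSCs. Prtn3 was lower in both HSC libraries, by a small amount for its error (-0.095, SE 0.069), and higher in both LSK libraries. Leaving out single libraries kept the value for Prtn3 between -0.96 and -0.83 and that for Plac8 between 0.89 and 1.04, the last of which, without replicate 2 of HSCs alone, was past the call rule.

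Of 14 genes of granule sorting and packaging, all of them tested, none was called in any of the 5 comparisons, and between 0 and 7 of the 14 had an unadjusted p under 0.05 (limma), 7 of them in LSK cells against HSCs with RBCs. In each comparison of cell types, 2 of the 14 had an adjusted p under 0.05, at under 2-fold. The most abundant were Srgn, the serglycin proteoglycan on which granule proteins are packed (768 to 1039 FPKM), Calr, the calreticulin chaperone of myeloperoxidase folding (370 to 501 FPKM), and Lamtor2, an endosomal adaptor (181 to 224 FPKM). Of 18 hydrolases and membrane proteins that azurophil granules share with lysosomes, 17 were tested, and Cd68 was called lower in LSK cells alone (85.9 and 107 FPKM in HSCs, 43.8 and 48.6 in LSK cells, log2 difference -1.04, adjusted p = 0.000541) and no other call was made. That call was lost without replicate 2 of HSCs or replicate 1 of LSK cells. The abundant ones, Cd63 (1181 to 1652 FPKM), Ctsd (626 to 1078 FPKM) and Lyz2 (196 to 454 FPKM), were not called. Between cell types, 4 of the 17 without RBCs and 8 with RBCs had an adjusted p under 0.05 (limma). Without RBCs, Ctsd was higher in LSK cells by 0.64 on the log2 scale (adjusted p = 0.000854) and Cd63 by 0.38 (adjusted p = 0.00868). With RBCs, Lyz2 was higher there by 0.84 (adjusted p = 0.00915). For RBCs in either cell type, 0 of the 17 had an adjusted p under 0.05.

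Among 13 inhibitors of granule proteases, 9 were tested. Cst7, cystatin F, which inhibits cathepsin C, was higher in LSK cells: 3.33 and 2.56 FPKM in HSCs and 32.4 and 31.3 in LSK cells alone (log2 difference 3.06, SE 0.14, adjusted p = 5.66e-06). With RBCs it had 3.84 and 4.70 FPKM in HSCs and 23.1 and 21.1 in LSK cells. Slpi, an inhibitor of elastase and cathepsin G, was higher in LSK cells as well (0.102 and 0.871 FPKM in HSCs alone, 8.96 and 11.4 in LSK cells alone, adjusted p = 0.000105), and it was called higher with RBCs in HSCs, at 2.53 and 2.64 FPKM (adjusted p = 0.0251). The call in HSCs was lost in 7 of 15 alternative settings. Wfdc2 was called lower in LSK cells in both conditions (17.2 and 18.7 FPKM in HSCs alone, 3.23 and 4.56 in LSK cells alone). The 3 most abundant, Serpina3g (549 to 949 FPKM), Cst3 (514 to 614 FPKM) and Serpinb1a (118 to 202 FPKM), a neutrophil elastase inhibitor, were not called in any comparison, and reads of the Serpin copies may be shared between near-identical genes. At under 2-fold, Serpina3g was lower in LSK cells than in HSCs (limma adjusted p = 0.00107 without RBCs and 9.6e-05 with). Serpinb1a was higher in LSK cells (adjusted p = 0.000636 and 0.0259), and higher with RBCs in HSCs (adjusted p = 0.0491). For Cst3 between cell types the adjusted p was 0.705 and 0.321.

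Of 16 transcription factors of the granule program, 14 were tested and none was called for RBCs in either cell type (limma), where 5 in HSCs and 3 in LSK cells had an unadjusted p under 0.05. An adjusted p under 0.05 was met by 1 in HSCs, the PU.1 gene Spi1, at under 2-fold. It had 70.3 and 63.2 FPKM without RBCs and 88.7 and 84.1 with (log2 difference 0.37, adjusted p = 0.0315). Between cell types, Cebpa, which drives the step to granulocyte-monocyte progenitors, was higher in LSK cells alone (1.64 and 0.679 FPKM in HSCs, 8.78 and 8.65 in LSK cells, log2 difference 2.21, SE 0.21, adjusted p = 0.00024) and with RBCs (adjusted p = 0.000133). Irf8, a factor of the monocyte branch, was higher too (6.19 and 5.48 FPKM in HSCs, 38.5 and 46.7 in LSK cells, adjusted p = 1.25e-05), and Cebpd was called with RBCs only in the comparison of cell types (adjusted p = 0.00457), a call lost without either second replicate of the groups with RBCs. Spi1 had 63.2 to 88.7 FPKM in the HSC libraries and 97.3 to 119 in the LSK libraries, Myb 72.4 to 91.8 and 103 to 116, Gata2 65.0 to 78.3 and 52.5 to 58.6, and Cebpb 46.3 to 55.6 and 38.2 to 44.0, none of them called. Their differences were under 2-fold. Between cell types without RBCs, the limma adjusted p was 0.00142 for Spi1, 0.0321 for Myb, 0.041 for Gata2 and 0.164 for Cebpb. With RBCs it was 0.00266, 0.00144, 0.00527 and 0.0107 in the same order. Cebpe, the factor of later granules, stood at no more than 0.869 FPKM, and Gfi1 at 1.05 to 4.25 FPKM.

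**Figure D5:**
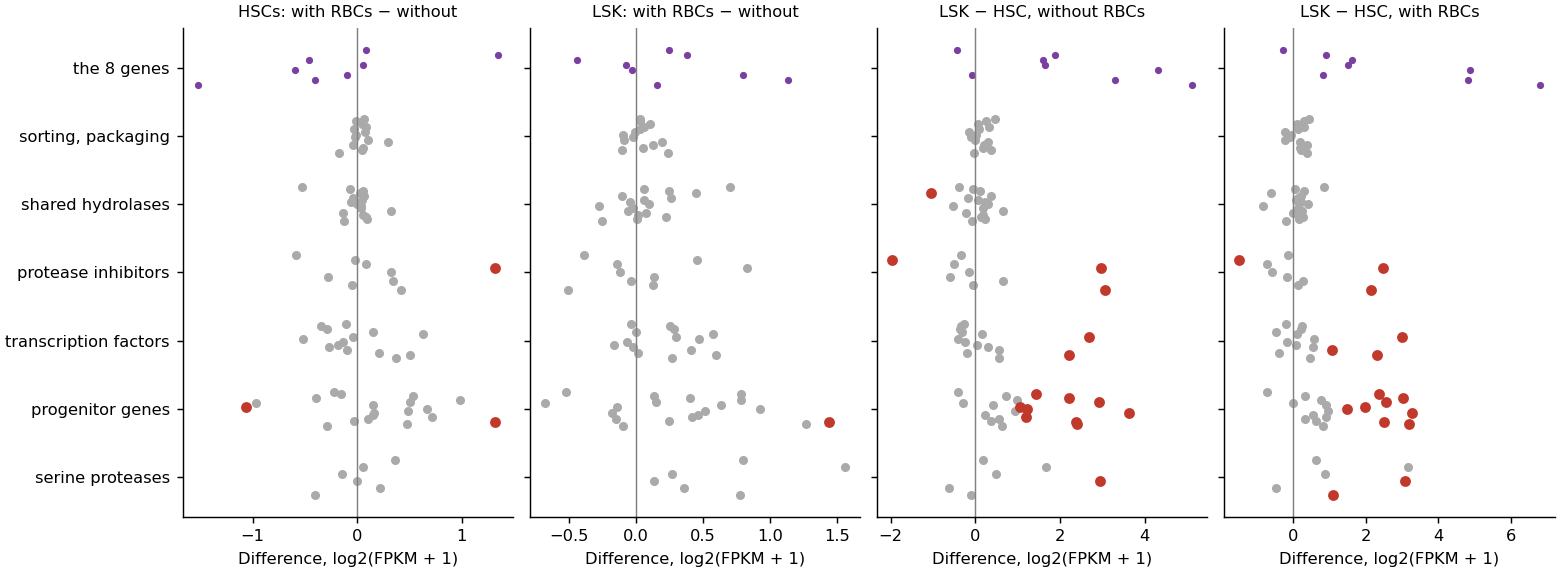
Differences on the log2(FPKM + 1) scale (horizontal axes) in 4 comparisons (panels) for the 8 genes (purple, not tested) and for the tested genes of 6 lists, each point 1 gene, called genes in red and others in grey. The sorting and packaging genes have no red point in any panel, and the progenitor genes have 9 and 8 in the comparisons of cell types.

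Of 20 other genes of granulocyte and monocyte progenitors, 19 were tested. Without RBCs, 9 were called higher in LSK cells and none lower, among them Fcgr3, Csf1r, Csf3r, Clec12a, Hp, Hk3, Tyrobp and Ly86. With RBCs the 9 were called again except Csf3r, 8 in all. Tyrobp, an adaptor of activating myeloid receptors, had 26.5 and 30.9 FPKM in HSCs alone and 241 and 206 in LSK cells alone (log2 difference 2.92, SE 0.15, adjusted p = 9.49e-06), and Clec12a, a lectin receptor, had 1.31 and 0.943 against 24.4 and 26.0 (log2 difference 3.63, SE 0.21, adjusted p = 1.64e-05). The median of the 19 was 0.97 without RBCs. Csf1r, the receptor of macrophage colony-stimulating factor, was called higher with RBCs in both cell types: 2.53 and 2.81 FPKM in HSCs alone and 7.08 and 9.37 with RBCs (log2 difference 1.32, SE 0.21, adjusted p = 0.0121), and 14.1 and 22.8 in LSK cells alone and 47.2 and 54.2 with RBCs (1.44, SE 0.21, adjusted p = 0.00753). Hk3, a myeloid hexokinase, fell with RBCs in HSCs (16.5 and 12.7 to 6.17 and 6.70 FPKM, log2 difference -1.06, SE 0.15, adjusted p = 0.00694) and had 27.5 and 35.4 FPKM in LSK cells alone and 28.7 and 27.7 with RBCs. Leaving out 1 library ended the Csf1r call in HSCs in 3 cases and in LSK cells in 2, and the Hk3 call in 2. Further members, none of them called, were Cd34 (316 to 597 FPKM), Gstm1 (113 to 244 FPKM) and Emb (81.4 to 174 FPKM). Their differences stayed under 2-fold but were not all near 0. With RBCs, Gstm1 was lower in HSCs (log2 difference -0.97, limma adjusted p = 0.000379) and in LSK cells (-0.68, adjusted p = 0.00228). Cd34 was higher in HSCs (0.54, adjusted p = 0.0028) and Emb in LSK cells (0.63, adjusted p = 0.00907). For Cd34 in LSK cells and Emb in HSCs the adjusted p was 0.307 and 0.563.

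Of 15 other serine protease genes of granules, 6 were tested. Mcpt8, listed at 0 in every HSC library, was called higher in LSK cells alone (adjusted p = 0.00657) and with RBCs (adjusted p = 0.00342), and Gzmb, granzyme B, was called with RBCs at no more than 1.88 FPKM in any library. The basophil protease gene Prss34 had 52.4 FPKM in replicate 1 of LSK cells with RBCs and at most 3.13 in any other library. Hpn had 1.24 to 4.49 FPKM and Gzmm 0.232 to 1.81, and neither was called. The mast cell genes Cma1, Mcpt1 and Tpsab1 were listed at 0 in all 8 libraries. In the same comparison of cell types, Cpa3, another mast cell and basophil protease gene, was higher in LSK cells (2.84 and 1.40 FPKM in HSCs alone, 17.8 and 26.0 in LSK cells alone).

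Of 535 genes with a mean of at least 10 FPKM and a range of at least 1 on the log2 scale, the 10 whose levels over the 8 libraries were most like the mean profile of the 8 were Padi2, H2-Ob, Il10rb, Bpifc, B3gnt2, Ap3s1, Dok3, Ppcdc, Ccng2 and Arhgap15, with r between 0.989 and 0.995. The likeness rests on 8 libraries that form 2 cell types. Padi2, a peptidylarginine deiminase, had 1.26 and 1.09 FPKM in HSCs alone, 0.819 and 1.24 with RBCs, 12.8 and 12.8 in LSK cells alone, and 26.9 and 27.4 with RBCs. Bpifc had 8.53 and 11.3, 12.9 and 14.2, 45.4 and 55.9, and 93.0 and 87.8 FPKM in the same order. Against that mean profile the 8 genes themselves had r between 0.720 for Prtn3 and 0.972 for Elane, except Ctsc at -0.742. Each of the 8 is part of that mean, which raises its own r.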

How the data were processed

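RNA from 8 libraries (4 groups, 2 libraries each) was made into full-length cDNA and sequenced by the authors. The deposited values are FPKM per gene symbol, made by the authors with TopHat2 2.1.1, Bowtie2 2.2.8, SAMtools 0.1.18 and Cuffdiff 2.2.1 on mm10, per the labels' processing notes. FPKM are not counts, so no count model was used. The filter kept genes that reached an FPKM of 1 in 2 or more libraries (12003 of 24346), and log2(FPKM + 1) was fitted with limma 3.58.1 in R 4.3.3 (mean-variance trend, 4 group means, 4 residual degrees of freedom). A fold difference on this scale understates the change of low genes. A call was an adjusted p (Benjamini-Hochberg) below 0.05 with a difference of 2-fold or more. The script was tested on simulated data. The 8 genes and all gene lists were chosen with earlier results of these data known, so counts of calls within a list are descriptions and not independent tests. By rule, named genes were the 8, the called genes of the lists, the 3 most abundant others of each pathway list, genes beside the 8 and the 10 most similar profiles. Not every called marker gene or neighbour is printed, 1 called gene of the lists is not reported here, and uncalled marker genes, Prss34, Cebpb, Cebpe, Gfi1, Fcnb and the genes listed at 0 were picked after their values were seen. Reads behind a level were read as multiples of the smallest FPKM step (for Elane only in the 4 HSC libraries; none was found for Prtn3, Plac8 and Ctsc) and are lower bounds. Total read numbers are not given in the sources used here. Same-numbered libraries did not deviate together (r from -0.067 to 0.095), so they were not paired. Promoter windows came from RefSeq and gene positions from GENCODE, both on GRCm38, matched for all 8 symbols. Alternatives were another pseudocount, no filter on low values, quantile and median scaling, the compared groups alone, no trend, a replicate block and each library left out.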

Additional observations from a re-analysis of the deposited data

Results flagged for a closer look

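Prtn3 was lower with RBCs in both HSC libraries and higher in both LSK libraries. Its RBC difference in HSCs minus that in LSK cells was -0.89 on the log2 scale. The HSC difference was small for its error, at -0.095 (SE 0.069), and the LSK difference was 0.80 (SE 0.069). Opposite movement without overlap, in either direction, was seen in 7.8% of the 12003 tested genes. Movement down in HSCs and up in LSK cells was seen in 4.07%. For Prtn3 the difference was not tested.

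The same pattern was met by other tested genes of the lists and of the 10 most similar profiles, none of them past the call rule for the difference, and 19 are given here by the HSC difference minus the LSK difference. Lyz2, the lysozyme gene, had the value farthest from 0 of these: 312 and 321 FPKM in HSCs alone, 221 and 218 with RBCs, 296 and 196 in LSK cells alone, and 341 and 454 with RBCs, a value of -1.23 (limma interaction, adjusted p = 0.127). Of the others lower in HSCs and higher in LSK cells, the value was -1.18 for Gzmb, -0.90 for Cpa3, -0.87 for Cx3cr1, -0.86 for Dok3, -0.69 for Hdc, -0.63 for Procr, -0.59 for Ets1, -0.56 for Mllt3, -0.46 for Cd79b, -0.45 for Hlf, -0.41 for Serpinb6a, -0.31 for Il10rb, -0.21 for Ctsb and -0.16 for Vps13b. In the other direction it was 0.93 for Cst7, 0.68 for Klrd1, 0.41 for Lck and 0.38 for Serpinb1a. Gzmb, Hdc and Cx3cr1 stood at no more than 2.59 FPKM in any library. For Hbb-b1, a beta-globin gene, the value was 5.21 and the test of the difference itself was past the threshold (limma interaction, adjusted p = 0.00306). Hbb-b1 had 1.93 and 1.94 FPKM in HSCs alone, 65.1 and 31.0 with RBCs, 0.907 and 2.12 in LSK cells alone, and 0.044 and 0.014 with RBCs, and reads of near-identical globin copies can be split between symbols.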

How the results depend on the processing

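The median log2 difference over the 8 genes kept its sign in the 5 comparisons and moved by less than the spread between replicates (0.18 on the log2 scale) under every alternative run for it except 1: the median of the difference in HSCs minus that in LSK cells was -0.15 without replicate 2 of HSCs with RBCs, and -0.51 to -0.15 over all 8 fits that left out a library. With a replicate block the medians were the same as without it, as the design gives, and the calls numbered 93 for RBCs in HSCs, 106 for RBCs in LSK cells, 320 and 435 between cell types, and 8 against 13 for the difference of the RBC differences. Of the list genes called in the main fit, the block ended only the call of Mmp8, and none of the 8 genes crossed the call rule under it. Calls that other genes gained under the block were not examined. With a pseudocount of 0.1, 485 genes were called between cell types without RBCs, against 319. With no filter on low values 50 were called for RBCs in HSCs (93 in the main fit), 70 for RBCs in LSK cells (121) and 2 for the difference (13), and with quantile normalization 20 for the difference. With a library left out, 64 to 119 genes were called for RBCs in LSK cells, the low counts being without replicate 1 of LSK cells alone (72) or without replicate 1 (64) or 2 (74) of LSK cells with RBCs, and 7 to 14 for the difference, 7 without replicate 1 of HSCs alone or replicate 2 of LSK cells with RBCs. The cause of these changes was not tested.

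Calls between cell types that ended when 1 library was left out were Cebpd, Cx3cr1, Cxcr2, Gzmb, Hba-a1, Hp and Padi4 with RBCs, and Cd68, Hk3, Hp, Retnlg and Slamf1 without. Mpo, Elane, Ctsg, Ms4a3 and Nkg7 stayed past the call rule between cell types under the 14 alternatives run for these comparisons in both conditions, and Plac8 did so without RBCs. The fit with no trend was run for the RBC differences within a cell type only, and the fit of the compared groups alone was not run for the difference of the RBC differences. With RBCs Plac8 passed the call rule under quantile normalization (1.02). Values of low genes are limited by depth: Ctsg in HSCs with RBCs rests on 11 reads and 1 read, Elane on 35 and 5, and Ms4a3 on 22 and 37.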
